A study of Mus musculus with 16 samples.

Results

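Keratins build the intermediate filaments of epithelial cells, and claudins form the strands of their tight junctions. Both gene families were read here on single-colour Agilent arrays of mouse pluripotent stem cells. The members are all gene probes whose name in the array files begins with Krt or Cldn followed by a digit. They comprise 73 of 41174 gene probes, 50 for keratins and 23 for claudins, and stand for 63 of 27670 named genes (42 keratins and 21 claudins). Of these genes, 10 are read by a pair of probes.

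The study set stem cell lines of non-obese diabetic (NOD) mice beside lines of non-NOD mice, with 16 arrays in 7 groups. Naive pluripotency, that of the early blastocyst, is kept in embryonic stem (ES) cells, and the primed state of the later epiblast in epiblast stem cells (EpiSC). The NOD lines were EpiSC-like induced pluripotent stem (iPS) line 6 (2 arrays, passages 7 and 12), EpiSC-like ES line 1 (4 arrays, passages 7, 10, 5 and 9 for replicates 1 to 4) and ES cells (3 arrays). The non-NOD lines were iPS lines titled iPS_EpiSC (called EpiSC iPS here, 2 arrays), EpiSC (2 arrays, passages 12 and 20), 129 ES cells titled epiESM (1 array, passage 8) and 129 ES cells titled mESM (2 arrays, passage 8). Each EpiSC-like group is 1 line sampled at several passages, so its arrays are not separate lines and their spread may be technical. The EpiSC and mESM titles give no line number, so the arrays of each of these groups may come from 1 line too. The p-values rest on a spread pooled for each probe over all 16 arrays of the 7 groups, not only on the arrays compared. What mESM, epiESM and the suffixes of some titles stand for is not stated in the labels. Feeder fibroblasts were removed from ES cells on gelatin, whereas EpiSC and EpiSC-like colonies were picked apart mechanically, per the labels' protocols.

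Keratins work in pairs. A type I (acidic) chain and a type II (basic) chain assemble into one filament, and the pair in use tells the kind of epithelium. Krt8 (type II) and Krt18 (type I) form the first filaments of the mouse embryo, in the trophectoderm, and remain the pair of simple epithelia such as gut and liver. Krt7 and Krt19 join them in ducts and glands, Krt5 with Krt14 or Krt15 mark the basal layer of stratified epithelia, Krt1 with Krt10 mark its upper layers, Krt6a, Krt6b, Krt16 and Krt17 appear in activated keratinocytes, and many others build hair and nail. Mouse type I keratin genes lie in a cluster on chromosome 11 and type II genes in a cluster on chromosome 15, where Krt18, a type I gene, sits beside Krt8. Claudins span the membrane, and each tight junction is as leaky as its claudins make it. Cldn3, Cldn4, Cldn6 and Cldn7 are counted among those that seal, and Cldn2, Cldn10, Cldn15 and Cldn16 among those that form channels for ions.

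All levels are log2 of the processed spot signal relative to the 75th percentile of the same array, so 0 is the level of a spot brighter than 75% of the gene spots. The level of a probe was compared between arrays and never with that of another probe. In a bulk RNA sample, fewer cells of a type and less RNA per cell cannot be told apart. By array, 26.3% to 88.5% of gene spots passed as well above background, and of the 73 member probes 20.5% (the array labelled NOD ES replicate 1) to 94.5% (NOD EpiSC-like ES replicate 2). No spot was saturated. The array labelled EpiSC iPS replicate 2 lay closer to NOD ES replicates 2 and 3 (SD of log2 differences over all measured probes 0.387 and 0.397) than to its own group's other array (0.964). Likewise, NOD ES replicate 1 as labelled lay closer to EpiSC iPS replicate 1 (0.698) than to NOD ES replicates 2 and 3 (1.13 and 1.15). The groups were kept as labelled, and some of the results that rest on these arrays, not all, are also given without them. Between the mESM arrays, whose source labels are identical, that SD was 0.2. Of 5 naive ES markers, 1 to 3 were above background on the EpiSC-like and EpiSC arrays, against all 5 in NOD ES, mESM and epiESM, and all 5 were above it in EpiSC iPS too. The summed linear level of 3 core pluripotency genes was 1.27 to 1.36 in EpiSC-like iPS and 4.82 to 6.46 in EpiSC-like ES, against 10.6 to 50.1 in NOD ES, and it was 7.44 to 7.52 in EpiSC.

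Of the 73 member probes, 12 were well above background on all 16 arrays, 35 on 8 to 15, 18 on 2 to 7, 6 on 1 and 2 on none. The 12 were the probes of Krt7 (both), Krt8 (both), Krt14, Krt16, Krt17, Krt18, Krt19, Cldn3, Cldn6 and Cldn7. Krt80 and Cldn8 were detected nowhere, and Cldn16, Krt25, Krt31, Krt33a, Krt82 and the second probe of Krt12 on a single array each. These 8 probes could not be tested. The other 65 (44 keratin and 21 claudin probes of 56 genes) passed the filter of at least 2 arrays and were fitted with all 34296 probes that passed it. A probe was called changed at a Benjamini-Hochberg adjusted p under 0.05 in limma over all of these probes, and "rose" and "fell" are used of such probes alone.

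**Figure D1:**
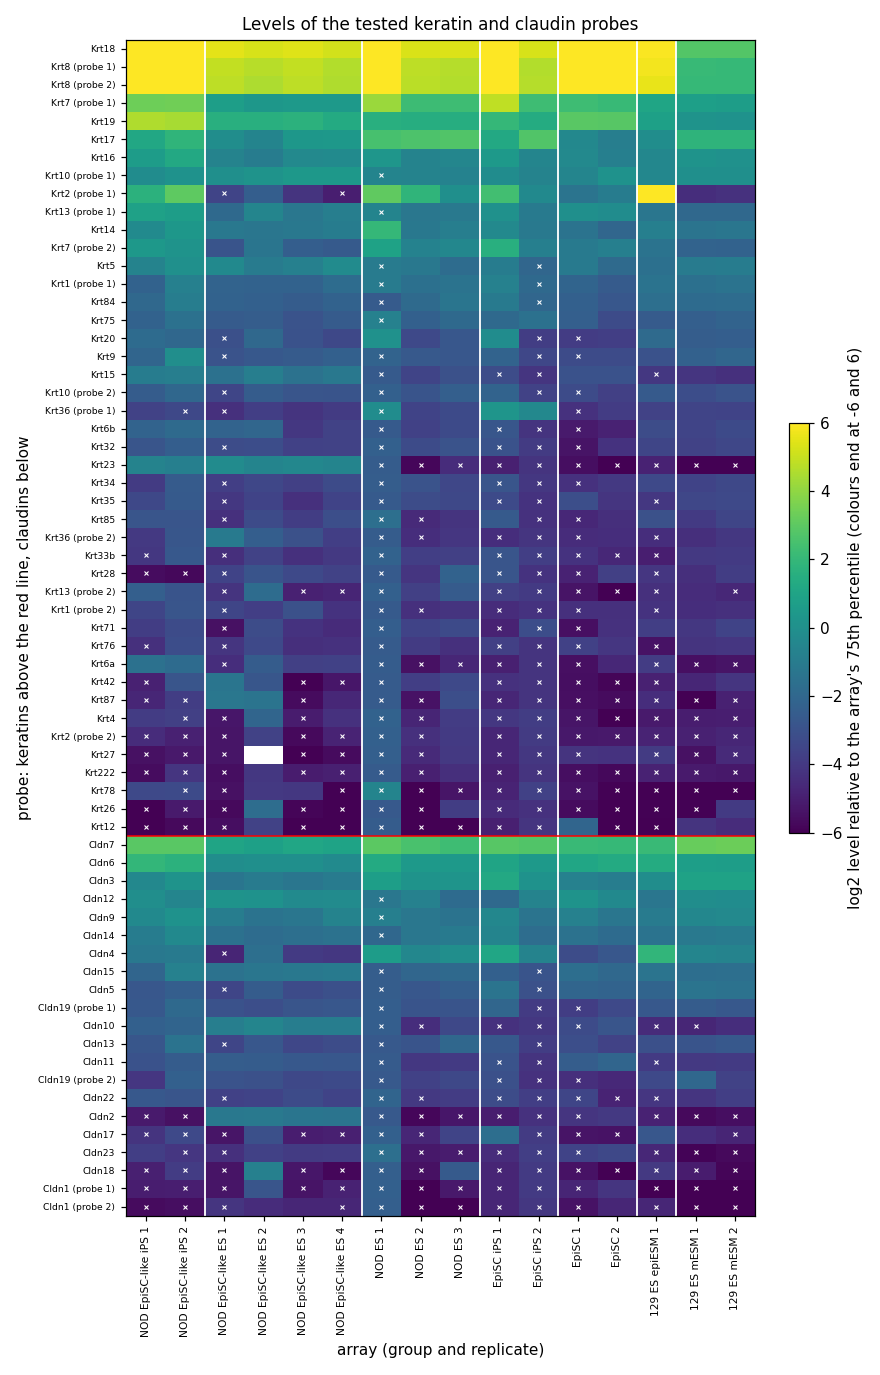
Level of the 65 tested keratin and claudin probes (rows) on the 16 arrays (columns, by group), as log2 relative to the 75th percentile of the array. Colours end at −6 and 6, a white cross marks a spot not well above background, the blank cell is 1 missing Krt27 spot, and of a gene's 2 probes, probe 1 has the higher mean. The rows of Krt7, Krt8, Krt18, Krt19, Cldn3, Cldn6 and Cldn7 carry no cross, and most hair keratins carry crosses on many arrays.

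The simple epithelial pair, Krt8 and Krt18, was present in every culture and lowest in mESM. Krt18 (probe A_51_P324814) read 7.83 and 7.83 in EpiSC-like iPS, 5.52, 5.26, 5.42 and 5.20 in EpiSC-like ES, and 7.24, 5.33 and 5.36 in NOD ES. It read 8.43 and 5.29 in EpiSC iPS, 6.84 and 6.82 in EpiSC, 5.93 in epiESM, and 2.79 and 2.77 in mESM. The EpiSC-like iPS arrays stood above those of EpiSC-like ES, the mESM arrays stood below all others, and the NOD ES and EpiSC iPS groups were each split by 1 array. Krt8 read 6.61 and 6.59 in EpiSC-like iPS, 4.89, 4.70, 4.90 and 4.62 in EpiSC-like ES, and 6.50, 4.83 and 4.66 in NOD ES (probe 1, A_51_P242399). It read 7.41 and 4.61 in EpiSC iPS, 6.27 and 6.12 in EpiSC, 5.79 in epiESM, and 2.08 and 2.02 in mESM. The higher array of NOD ES and the lower array of EpiSC iPS were the pair of doubtful label, for both genes.

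**Figure D2:**
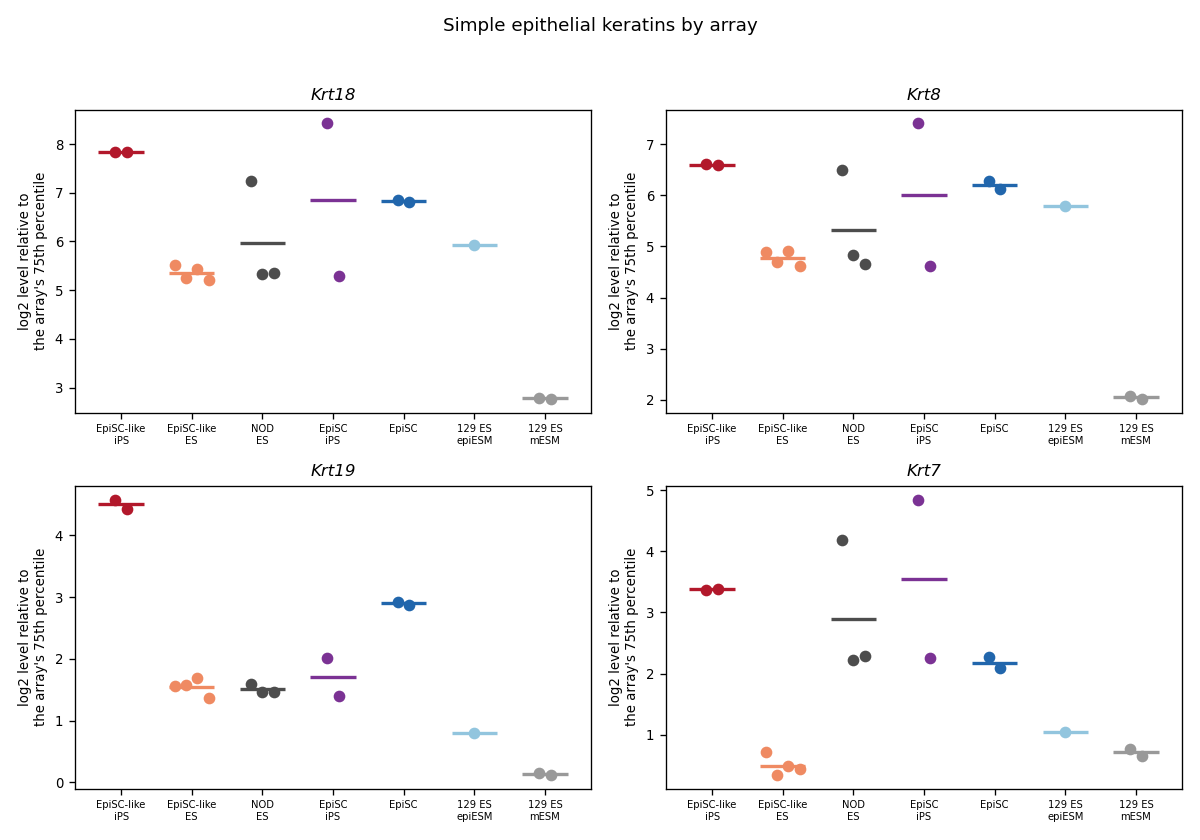
Level (log2 relative to the array's 75th percentile) of the simple epithelial keratins Krt18, Krt8 (probe 1), Krt19 and Krt7 (probe 1) by group. Each point is 1 array, open points were not well above background and bars are group means. Krt18 and Krt8 sit highest in 1 EpiSC iPS array and in EpiSC-like iPS and lowest in the mESM arrays, and Krt19 is highest in EpiSC-like iPS.

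Krt19, which needs no fixed partner and marks ducts, read 4.58 and 4.42 in EpiSC-like iPS, 1.56, 1.58, 1.69 and 1.36 in EpiSC-like ES, and 1.59, 1.46 and 1.47 in NOD ES. It read 2.01 and 1.40 in EpiSC iPS, 2.92 and 2.87 in EpiSC, 0.80 in epiESM, and 0.16 and 0.12 in mESM. The EpiSC-like iPS arrays were the highest and the EpiSC arrays next, while the EpiSC-like ES arrays overlapped those of NOD ES. Krt7 (probe 1) read 3.37 and 3.39 in EpiSC-like iPS, 0.71, 0.34, 0.49 and 0.44 in EpiSC-like ES, and 4.19, 2.22 and 2.29 in NOD ES. Krt7 read 4.85 and 2.25 in EpiSC iPS, 2.27 and 2.09 in EpiSC, 1.05 in epiESM, and 0.76 and 0.66 in mESM. EpiSC-like ES and mESM were the lowest groups for this gene, and their arrays overlapped. Krt23, a type I keratin of simple epithelia, was above background in all 6 EpiSC-like arrays (−0.64 and −0.83 in the iPS line, −0.22, −0.59, −0.46 and −0.58 in the ES line) and on none of the other 10.

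Promoter sequences of 5 members called between the states, picked because they hold the letters CACCTG, are shown since several zinc finger and bHLH repressors of epithelial genes (the SNAI, ZEB and TWIST families), whose own changes are given further on, bind the letters CACCTG or close variants. The windows are the 250 bases before the RefSeq start site in GRCm38.p6, the C57BL/6J reference, not the NOD or 129 genome. They are written 5′ to 3′ on the strand of the gene, and capitals mark CACCTG or its reverse complement CAGGTG. Krt8 lies at chr15:102004343-102004592 (minus strand), Krt18 at chr15:102027966-102028215 (plus), Krt23 at chr11:99493121-99493370 (minus), Cldn4 at chr5:134946935-134947184 (minus) and Cldn7, second of 2 start sites, at chr11:69965171-69965420 (plus).
Krt8: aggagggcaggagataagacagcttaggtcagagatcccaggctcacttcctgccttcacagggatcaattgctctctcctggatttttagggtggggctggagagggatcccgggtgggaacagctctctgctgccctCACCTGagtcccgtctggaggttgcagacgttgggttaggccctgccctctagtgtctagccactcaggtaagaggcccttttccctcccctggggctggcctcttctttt
Krt18: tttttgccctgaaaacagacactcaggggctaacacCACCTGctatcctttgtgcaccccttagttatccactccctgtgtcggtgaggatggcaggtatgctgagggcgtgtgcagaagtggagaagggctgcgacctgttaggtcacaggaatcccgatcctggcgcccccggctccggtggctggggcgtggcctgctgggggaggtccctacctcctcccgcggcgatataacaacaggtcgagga
Krt23: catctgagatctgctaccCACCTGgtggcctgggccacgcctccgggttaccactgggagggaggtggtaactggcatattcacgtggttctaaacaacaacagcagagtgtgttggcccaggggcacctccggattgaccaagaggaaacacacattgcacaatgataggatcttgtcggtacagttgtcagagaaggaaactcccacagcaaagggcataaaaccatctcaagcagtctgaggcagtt
Cldn4: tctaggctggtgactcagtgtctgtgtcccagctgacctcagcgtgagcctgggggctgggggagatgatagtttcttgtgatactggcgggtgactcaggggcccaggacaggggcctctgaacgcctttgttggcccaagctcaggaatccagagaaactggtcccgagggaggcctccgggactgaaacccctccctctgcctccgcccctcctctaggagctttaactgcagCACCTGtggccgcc
Cldn7: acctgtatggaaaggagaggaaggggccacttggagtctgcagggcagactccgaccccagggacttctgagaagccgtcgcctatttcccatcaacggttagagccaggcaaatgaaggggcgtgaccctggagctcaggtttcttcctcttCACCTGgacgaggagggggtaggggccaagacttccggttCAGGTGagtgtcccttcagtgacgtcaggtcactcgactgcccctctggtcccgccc
The match began 111 bases before the start of Krt8, 214 before Krt18, 232 before Krt23, 14 before Cldn4, and 97 and 57 before Cldn7. It was found on either strand in 12 of 54 start sites of 45 member genes that the RefSeq table holds, and in 17.22% of all 32851 start sites. Other letters searched on both strands were GGGCGG (an SP1-type GC box, 14 of 54 member sites and 32.742% of all), TGANTCA (an AP-1 type element, 4 of 54 and 6.749%) and AACCGGTT (a grainyhead-type element, 0 of 54 and 0.116%). A match is a description of these letters and not of binding. Krt5 and Krt10, called higher between the NOD states, also held CACCTG, 128 and 52 bases before the start, and are not shown. Cldn3, Cldn10, Cldn11, Cldn12, Cldn15, Krt2, Krt13, Krt27 and Krt28, also called between the states, had no match in these windows. Krt15, Krt17 and Krt19 were not in the table.

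The first comparison set the EpiSC-like state of the NOD lines against their ES state, with the EpiSC-like lines weighted equally. Of 6 tested simple keratins Krt23 and Krt19 rose, and of 3 basal keratins Krt15 and Krt5. The simple keratins Krt7, Krt8, Krt18 and Krt20 (−0.36) and the basal Krt14 (−0.52) were not called. Of 11 tested sealing claudins Cldn3, Cldn4 and Cldn7 fell. Of the 65 members 8 rose and 7 fell (23.1%), against 35.7% of all 34296 probes called (15.9% higher and 19.7% lower). The members' median difference was −0.11 and that of all probes −0.23. Krt23 was at least 10.6-fold higher, since no NOD ES array measured it (adjusted p = 0.000387). Krt19 rose by 1.52 ± 0.17 (log2 ± SE, 6 arrays against 3, adjusted p = 4.61e-05) although its EpiSC-like ES arrays overlapped those of NOD ES. Krt15, a type I keratin of basal cells, read −0.94 and −0.88 in EpiSC-like iPS and −1.52, −0.86, −1.46 and −1.20 in EpiSC-like ES, against −3.53 and −3.04 on the NOD ES arrays that measured it. It rose by 1.97 ± 0.27 (adjusted p = 0.000148), with no overlap between the groups. Krt5, the type II basal keratin, rose by 0.89 ± 0.32 (adjusted p = 0.0491), and this call was lost in 10 of the 16 fits that left out 1 array (adjusted p up to 0.2). Krt10 rose by 0.73 ± 0.20 on probe 1 (adjusted p = 0.0152), a call lost without EpiSC-like iPS replicate 2 or NOD ES replicate 3 (up to 0.0568), while its probe 2 differed by −0.06.

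The channel claudins Cldn10 and Cldn15 rose by 1.91 ± 0.36 (adjusted p = 0.00137) and 0.83 ± 0.28 (adjusted p = 0.0398). The call of Cldn15 was lost in 11 of the 16 fits that left out 1 array (up to 0.129). Cldn12, a claudin expressed in many tissues, rose by 1.08 ± 0.31 (adjusted p = 0.0186), a call lost without EpiSC-like iPS replicate 1 or NOD ES replicate 3 (up to 0.102). Cldn4 read −1.22 and −1.04 in EpiSC-like iPS and −1.61, −3.96 and −4.05 on the EpiSC-like ES arrays that measured it, against 0.65, −0.46 and −0.06 in NOD ES. It fell by 2.41 ± 0.62 on the log2 scale (adjusted p = 0.00979), and the groups did not overlap. Cldn3 fell by 1.00 ± 0.26 (adjusted p = 0.0106). Cldn7 fell by 0.66 ± 0.18 (adjusted p = 0.0127), but its EpiSC-like iPS arrays (2.93 and 2.93) lay within the range of NOD ES (2.98, 2.57 and 2.29) and only the EpiSC-like ES arrays (0.81 to 1.11) lay below it. Cldn6, the claudin of early embryonic epithelia, differed by 0.12 ± 0.24 and was not called.

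Among other keratins, Krt17 fell by 1.87 ± 0.34 (adjusted p = 0.00108), with 1.21 and 1.85 in EpiSC-like iPS and −0.59 to 0.39 in EpiSC-like ES, against 2.53, 2.63 and 2.76 in NOD ES. Krt2, a type II keratin of upper epidermis, fell by 2.34 ± 0.79 (adjusted p = 0.038) on probe 1, but this call was lost in 10 of 16 fits without 1 array (up to 0.15). This average joins lines that went opposite ways, with Krt2 means of 2.38 in EpiSC-like iPS and −3.80 in EpiSC-like ES, against 1.63 in NOD ES. The hair follicle keratin Krt27 was called lower (adjusted p = 0.00878) with no EpiSC-like array and 1 of 3 NOD ES arrays above background, and its difference turned to 1.44 with normexp background correction and 0.068 in the deposited value table. Krt28, another hair follicle keratin, fell by 1.53 ± 0.46 (adjusted p = 0.023), a call lost without either EpiSC-like iPS array, NOD ES replicate 1 or NOD ES replicate 3 (up to 0.119), and its difference turned to 1.03 with normexp and 0.32 on slide 4. Krt8 (0.36 ± 0.55 and 0.21 ± 0.52 on its probes), Krt18 (0.62 ± 0.60) and Krt7 (−0.96 ± 0.54 and −0.95) were not called. With the doubtful pair of arrays left out, Krt8 rose by 0.94 and 0.78 (adjusted p = 0.000167 and 0.000535), Krt18 by 1.25 (1.77e-05) and Cldn6 by 0.42 (0.0198), while Krt2, Krt28 and Cldn15 were no longer called. In that fit 26 members were called, 21 of them higher, against 49.6% of all probes. The EpiSC-like lines did not move together. For Krt8 (probe 1) and Krt18 the EpiSC-like ES arrays overlapped NOD ES replicates 2 and 3, while the EpiSC-like iPS arrays lay above them. The Cldn6 mean was 1.82 in EpiSC-like iPS and −0.11 in EpiSC-like ES, against 0.74 in NOD ES with all 3 arrays. On slide 4, which held EpiSC-like ES replicate 2 and NOD ES replicates 2 and 3 but no iPS line, Krt19 differed by 0.12, Krt8 by −0.04 and −0.16 and Krt18 by −0.08, while Krt15 differed by 2.42, Krt23 by 4.54, Krt17 by −3.29 and Cldn7 by −1.62. With the slide as a block 14 of the 15 called members kept their direction, all but Cldn4, and 6 stayed called.

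**Figure D3:**
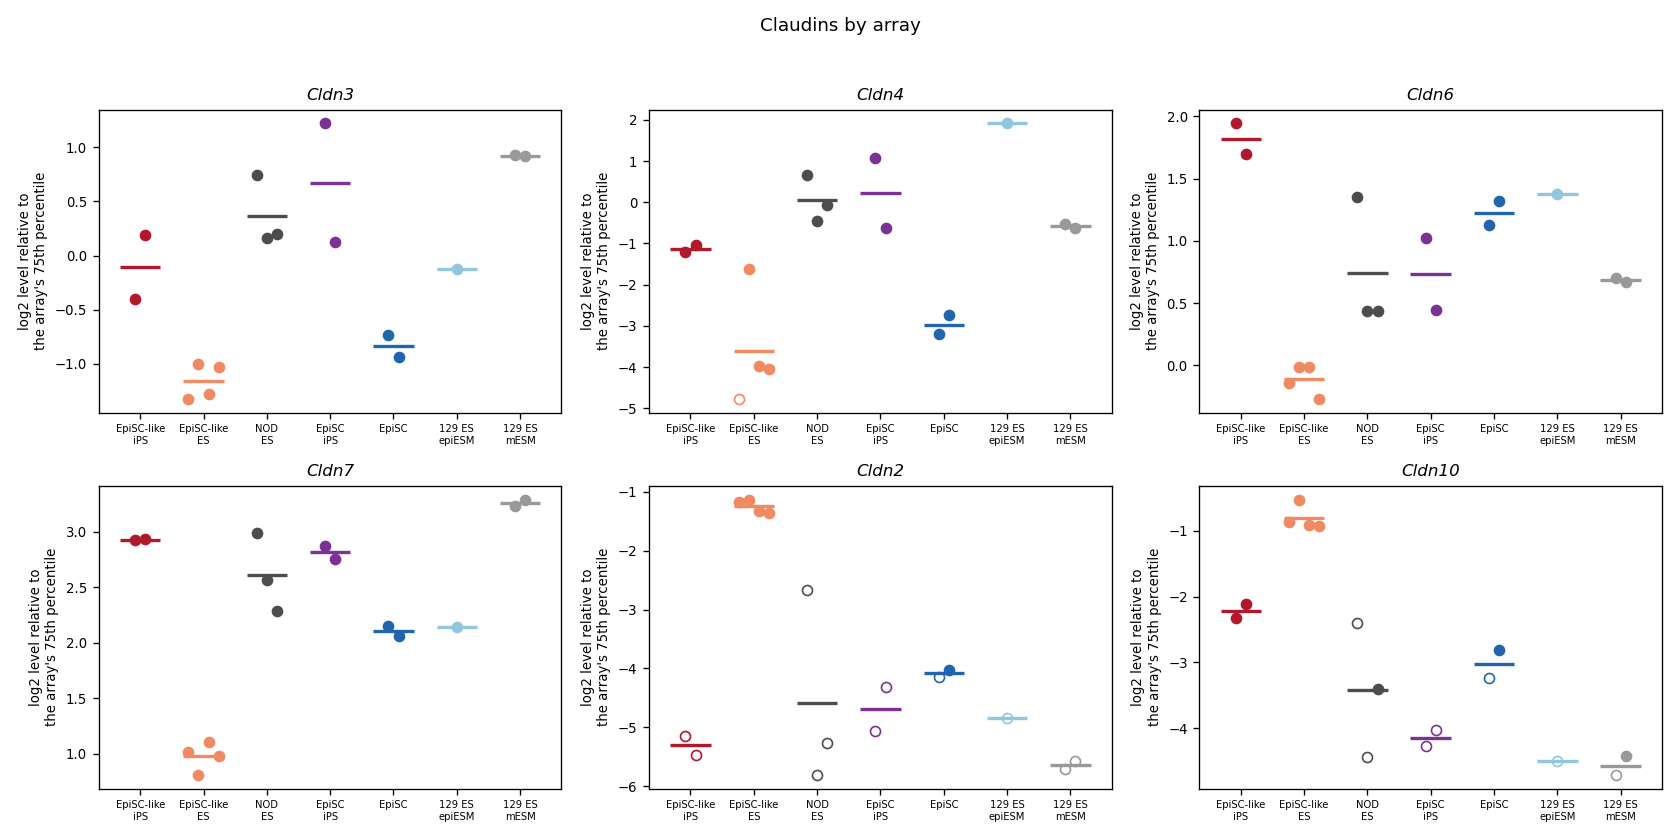
Level (log2 relative to the array's 75th percentile) of selected claudins by group. Each point is 1 array, open points were not well above background and bars are group means. Cldn7 and Cldn6 are lowest in EpiSC-like ES, Cldn2 stands out in that line alone, and Cldn4 is highest in the epiESM array (1.91).

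The same states in non-NOD lines were compared as EpiSC against 129 ES mESM, and here the largest rises among members were those of Krt8 and Krt18. Krt8 rose by 4.14 ± 0.76 and 4.02 ± 0.72 on its probes (2 arrays against 2, adjusted p = 0.00273 and 0.00239), Krt18 by 4.05 ± 0.83 (0.00523) and Krt19 by 2.76 ± 0.24 (2.33e-05). Cldn3 fell by 1.75 ± 0.36 (0.00534) and Cldn7 by 1.15 ± 0.25 (0.00657). Of the 65 members 8 rose and 3 fell (16.9%), against 21.6% of all probes (11.2% higher and 10.4% lower), with a median of −0.41 for the members and −0.27 for all probes. Krt17 fell by 2.44 ± 0.47 (0.00357), with −0.41 and −0.85 in EpiSC against 1.82 and 1.80 in mESM. Krt15 (1.27 ± 0.37), Krt13 (probe 1, 1.86 ± 0.46), a keratin of mucosal lining, Cldn10 (1.54 ± 0.49) and Cldn11 (1.73 ± 0.50), the claudin of myelin and testis barriers, rose as well. Those 4 calls were lost without any single EpiSC or mESM array (adjusted p up to 0.0805 for Krt13, 0.166 for Krt15 and Cldn11 and 0.22 for Cldn10), and that of Cldn7 without EpiSC replicate 2 or mESM replicate 2 (up to 0.0586). The second Krt13 probe went the other way, by −1.23 without a call, and no EpiSC array measured it. Cldn4 differed by −2.39 ± 0.86 (adjusted p = 0.0692), Cldn6 by 0.53 and Krt7 by 1.47 and 1.28, none of them called. The arrays of doubtful label are in neither group but enter the spread, and without them the SE of Krt8 (probe 1) was 0.15. With the mESM arrays averaged to 1, Krt8 (both probes), Krt18, Krt19, Krt17 and Cldn3 were still called. These arrays stood on different slides by group, and with the slide as a block 11 of 11 called members kept their direction and 1 stayed called.

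Markers of fibroblast feeder cells moved with the simple keratins in this comparison. Of 10 such genes 9 rose, among them Col3a1 by 7.09 and Lum by 6.11. Their summed linear level was 283 to 306 in EpiSC and 19.4 to 19.7 in mESM, with 9 or 10 of 10 above background in both. In the other groups the sum was 436 to 464 in EpiSC-like iPS, 436 to 610 in EpiSC-like ES, 55.8 to 202 in NOD ES, 59.0 to 512 in EpiSC iPS and 210 in epiESM, and in the NOD state comparison 8 of 10 rose. The trophectoderm list of 9 genes shares Krt7, Krt8 and Krt18. Among its other 6, Gata3 rose by 4.03 and Tfap2c fell by 2.94 in EpiSC against mESM, and Eomes differed by 0.78 without a call. The part of either cell type in the keratin values was not tested.

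The state difference of the NOD lines was set against that of the non-NOD lines as an interaction, the NOD difference minus the non-NOD difference. The labels give the EpiSC arrays only as non-NOD, and the ES arrays of that arm are 129. It was called for 4 of 65 member probes (6.15%, all lower), against 10.3% of all probes (4.09% higher and 6.2% lower). These were Krt8 (−3.79 ± 0.93 and −3.81 ± 0.88 on its probes, adjusted p = 0.0258 and 0.0202), Krt2 (probe 1, −5.51 ± 1.35, 0.0253) and Krt19 (−1.24 ± 0.29, 0.0224). The other Krt2 probe gave −0.84 (adjusted p = 0.624). For Krt2 (probe 1) the NOD difference averages lines that went opposite ways, as given above. Krt8 differed by 0.36 and 0.21 between the NOD states and by 4.14 and 4.02 between EpiSC and mESM. The non-NOD difference rests on the mESM arrays, and the other 129 ES array, epiESM, read 5.79 for Krt8 and 5.93 for Krt18, closer to EpiSC than to mESM. Krt18 had an interaction of −3.44 with adjusted p = 0.0566. Leaving out the doubtful arrays gave interactions of −3.20 and −3.24 for Krt8, −1.20 for Krt19 and −2.80 for Krt18 (adjusted p = 2.3e-05). None of the 4 calls held in all 16 fits without 1 array, and each was lost without any single EpiSC or mESM array (adjusted p up to 0.0898 and 0.109 for Krt8, 0.107 for Krt2 and 0.113 for Krt19). With the slide as a block, with normexp or with the mESM arrays averaged, all 4 kept their direction and 0 stayed called. No claudin had a called interaction (1 of 21 claudin probes and 8400 of all 34296 probes at an unadjusted p under 0.05 in limma).

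**Figure D4:**
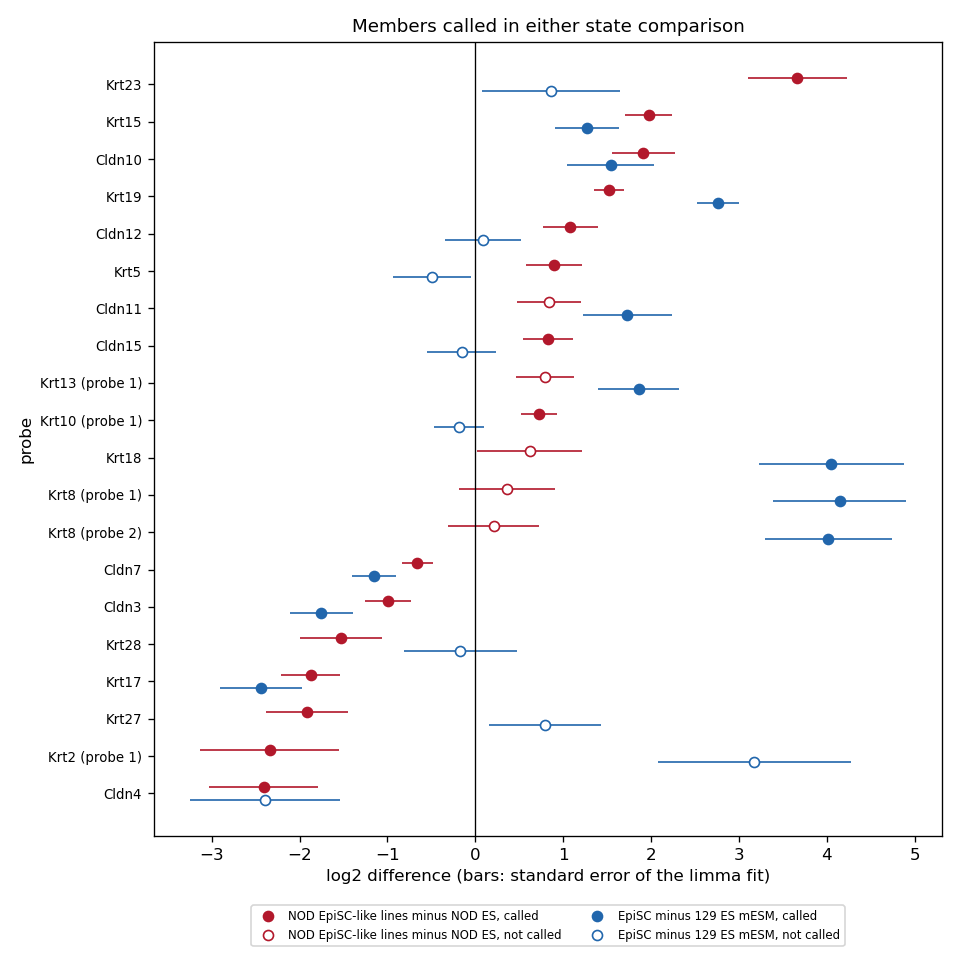
Log2 difference ± SE of members called in either state comparison (EpiSC-like lines minus ES for NOD, EpiSC minus mESM for non-NOD). Filled points passed an adjusted p of 0.05 in limma and open points did not. Krt8 and Krt18 lie near 4 in EpiSC minus mESM and below 1 in the NOD lines, and Krt17, Cldn3 and Cldn7 lie below 0 in both.

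Krt19, Krt15 and Cldn10 rose and Krt17, Cldn3 and Cldn7 fell in both state comparisons. These comparisons share no array but share 1 estimate of the spread. In the NOD comparison Krt19 had means of 4.50 in EpiSC-like iPS, 1.55 in EpiSC-like ES and 1.505 in NOD ES. Cldn7 means were 2.93, 0.98 and 2.61 in the same order, and Cldn3 overlapped between the states. In EpiSC against mESM the calls of Krt15 and Cldn10 were lost without any single EpiSC or mESM array. Of the 9 genes with a pair of tested probes, the probes had the same sign for 4 in the NOD comparison and for 6 in the other. The probes of Krt7, Krt8, Cldn19 and Krt2 had the same sign in the NOD comparison, while those of Krt1, Krt10, Krt13, Krt36 and Cldn1 did not.

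The lines of the NOD EpiSC-like state also differed from each other in some members. Set against EpiSC-like ES, EpiSC-like iPS had higher Krt7, Krt18 and Krt19 (3 of 6 tested simple keratins) and higher Cldn3, Cldn4, Cldn6 and Cldn7 (4 of 11 tested sealing claudins). Of 65 members 13 rose and 3 fell (24.6%), equal to the 24.6% of all probes called (13.4% higher and 11.2% lower), and the members' median was 0.73 against 0.25 for all probes. Krt2 (probe 1) rose by 6.18 ± 0.95 (2 arrays against 4, adjusted p = 0.000967), with 1.73 and 3.03 in EpiSC-like iPS against −2.41 and −4.22 on the EpiSC-like ES arrays that measured it. Its other probe differed by 0.19 and was not above background in EpiSC-like iPS. Krt19 rose by 2.95 ± 0.21 (1.14e-05), Krt7 by 2.88 ± 0.65 and 2.58 ± 0.64 (0.00836 and 0.0136) and Krt18 by 2.48 ± 0.72 (0.0275). The call of Krt18 was lost without either EpiSC-like iPS array or EpiSC-like ES replicate 3 or 4 (up to 0.153), and those of Krt7 without EpiSC-like iPS replicate 2 (up to 0.0702 and 0.0823). Krt8 differed by 1.82 ± 0.66 and 1.59 ± 0.62 (adjusted p = 0.064 and 0.0838) and was called when the doubtful arrays were left out (9.47e-06 and 1.83e-05), which enter the spread but not the difference. Krt13 (probe 1) rose by 1.90 ± 0.40 (0.00541), and Krt9, Krt16 and Krt17 by 1.52, 1.47 and 1.53 (0.0439, 0.014 and 0.0181), calls that did not hold without EpiSC-like iPS replicate 2 (up to 0.572, 0.169 and 0.196).

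Of 21 claudin probes 4 rose and 2 fell between these lines (28.6%), against 24.6% of all probes called. Cldn7 read 2.93 and 2.93 in EpiSC-like iPS, against 1.02, 0.81, 1.11 and 0.98 in EpiSC-like ES. It rose by 1.95 ± 0.21 (adjusted p = 0.000121). Cldn6 read 1.94 and 1.70 in EpiSC-like iPS, against −0.14, −0.02, −0.01 and −0.27 in EpiSC-like ES, and rose by 1.93 ± 0.28 (0.000698). Neither pair of groups overlapped. Cldn4 rose by 2.47 ± 0.74 (0.0323) and Cldn3 by 1.05 ± 0.31 (0.0307), calls lost in 5 and 4 of the 16 fits without 1 array (up to 0.185 and 0.292). Cldn2, a channel for cations in leaky epithelia, read −1.18, −1.13, −1.32 and −1.36 in EpiSC-like ES and was not well above background in EpiSC-like iPS, at least 8.4-fold lower (0.00124). Outside EpiSC-like ES it was measured on 1 array, EpiSC replicate 2 (−4.02). Cldn10, another channel claudin, fell by 1.41 ± 0.43 (0.0333), a call lost in 8 of 16 such fits (up to 0.14), with −2.32 and −2.12 in EpiSC-like iPS against −0.86, −0.53, −0.91 and −0.92 in EpiSC-like ES. Krt28 was at least 1.93-fold lower (0.0119), a call lost without either EpiSC-like iPS array (up to 0.0976). On slide 1, which held 1 array of each line, all 16 called members kept their direction, and with the slide as a block 6 stayed called. With normexp background correction none of the 16 stayed called and 13 kept their direction. Of 10 fibroblast markers 3 fell between these lines, and their part was not tested.

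Against EpiSC, the lines they are named after, the NOD EpiSC-like lines had higher Krt23 and Krt15. Of 5 activation keratins 3 rose, of 15 tested hair and nail keratins 1, of 3 basal keratins 1, and of 6 simple keratins 1. Of 65 members 8 rose and 0 fell (12.3%), against 13.9% of all probes (6.89% higher and 7.01% lower). An unadjusted p under 0.05 in limma was met by 16 of the 65 members and by 10301 of all 34296 probes. The members' median was 0.63 and that of all probes 0.26. No EpiSC array measured Krt23, whose level was thus 21.6-fold higher at least (adjusted p = 0.000629), and the second probe of Krt13, above background on 3 of 6 EpiSC-like arrays, was at least 3.4-fold higher (0.0383). The first Krt13 probe, above background on all 6 and on both EpiSC arrays, differed by −0.08 (adjusted p = 0.899). Krt6b rose by 2.51 ± 0.56 (0.0139) and Krt6a by 2.46 ± 0.68 (0.035), activation keratins of near-identical sequence that a probe may not tell apart. Krt15 rose by 1.90 ± 0.30 (0.00255), the hair keratin Krt32 by 1.77 ± 0.37 (0.0102), Cldn10 by 1.52 ± 0.41 (0.0312) and Krt17 by 1.40 ± 0.39 (0.035). The groups overlapped for Krt17, with means of 1.53 in EpiSC-like iPS and 0.004 in EpiSC-like ES, against −0.63 in EpiSC. Krt8 (−0.51 and −0.57), Krt18 (−0.24), Krt19 (0.13), Krt7 (−0.24 and −0.08), Cldn3 (0.20), Cldn4 (0.61), Cldn6 (−0.36) and Cldn7 (−0.15) were not called. For all 8 of these genes this mean lay between a line above EpiSC and a line below it. Of the 8, only Krt23 and Krt15 were called in all 16 fits without 1 array. Krt6b was lost without either EpiSC array (up to 0.132), Krt32 without EpiSC replicate 1 (0.174), and Krt6a, Krt13, Krt17 and Cldn10 in 7 or 8 fits (up to 0.303).

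**Figure D5:**
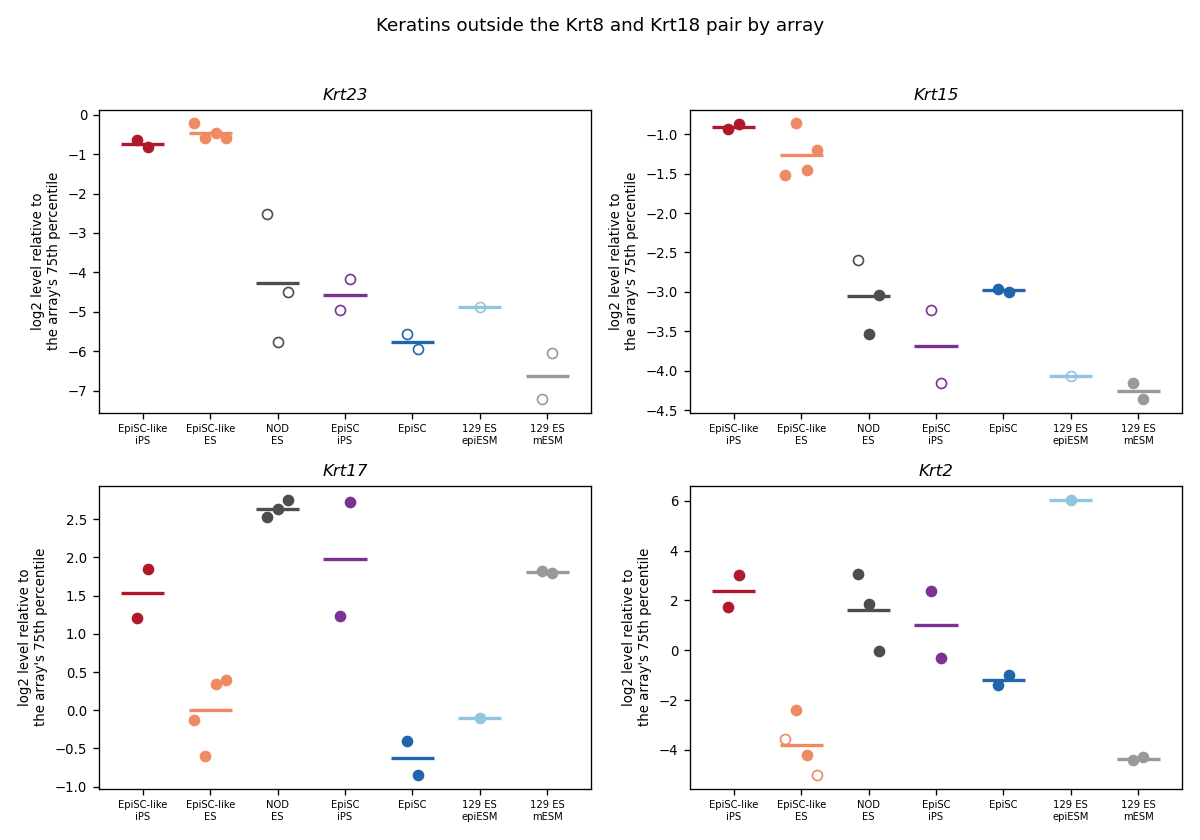
Level (log2 relative to the array's 75th percentile) of Krt23, Krt15, Krt17 and Krt2 (probe 1) by group. Each point is 1 array, open points were not well above background and bars are group means. Krt23 is above background in the EpiSC-like lines alone, Krt15 is highest there, Krt17 is highest in NOD ES and on 1 EpiSC iPS array, and Krt2 (probe 1) spans from 6.05 in epiESM to below −4 in mESM and on some EpiSC-like ES arrays.

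EpiSC iPS lines, set against EpiSC, had higher Cldn3, Cldn4 and Krt17 and lower Krt19. Of 65 members 4 rose and 1 fell (7.69%), against 18.5% of all probes (9.98% higher and 8.55% lower), and the medians were 0.69 for members and 0.37 for all probes. Cldn3 read 1.22 and 0.12 in EpiSC iPS, against −0.73 and −0.93 in EpiSC, and rose by 1.50 ± 0.36 (adjusted p = 0.0138). Cldn4 read 1.08 and −0.63 in EpiSC iPS, against −3.19 and −2.75 in EpiSC, and rose by 3.20 ± 0.86 (0.0238). Neither pair of groups overlapped, and both calls were lost without either EpiSC array or EpiSC iPS replicate 1 (up to 0.0989 and 0.146). Krt17 rose by 2.61 ± 0.47 (0.00283) and Krt36 (probe 1), a hair and nail keratin, by 4.01 ± 0.85 (0.00749), with 0.26 and −0.40 in EpiSC iPS against −3.87 on the EpiSC array that measured it. The call of Krt36 was lost without EpiSC replicate 1 (0.057), and its probe 2 differed by 0.15. Krt19 fell by 1.19 ± 0.24 (0.00561). Krt8 (−0.18 and −0.06), Krt18 (0.03), Krt7 (1.37 and 1.33), Cldn6 (−0.49) and Cldn7 (0.71) were not called. With the doubtful arrays left out, the lone EpiSC iPS array gave 1.21 and 1.24 for Krt8 (0.00103 and 0.000872), 1.60 for Krt18 (0.000169) and 0.77 for Cldn7 (0.011), and 29 members were called against 38.5% of all probes. That fit assumes the lone array to vary as the other groups do. With the slide as a block none of the 5 calls stayed, and Cldn4 turned to −0.47. Both EpiSC iPS arrays stood on slide 6, whose only other array was NOD ES replicate 1, of doubtful label. EpiSC stood on slides 1 and 3. Slide and group are thus told apart here only through that array, and the turn cannot be assigned to either.

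Set against mESM, EpiSC iPS had higher Krt8, Krt18, Krt19, Krt7, Krt2 and Krt36, and no claudin was called. Of 65 members 8 rose and 0 fell (12.3%), against 9.6% of all probes (5.92% higher and 3.67% lower). Krt2 (probe 1) rose by 5.38 (adjusted p = 0.0127), Krt18 by 4.08 ± 0.83 (0.0125), Krt8 by 3.96 ± 0.76 and 3.96 (0.00977 and 0.00806), Krt36 (probe 1) by 3.49 (0.0275), Krt7 by 2.84 and 2.60 (0.0375 and 0.0494) and Krt19 by 1.57 ± 0.24 (0.0041). The other probes of Krt2 and Krt36 differed by 0.48 and −0.08 and were not above background in EpiSC iPS. Cldn3 (−0.25), Cldn4 (0.80), Cldn6 (0.04) and Cldn7 (−0.45) were not called. An unadjusted p under 0.05 in limma was met by 4 of 21 claudin probes and by 8825 of all 34296 probes. With the doubtful arrays left out, the lone EpiSC iPS array gave 5.36 and 5.26 for Krt8, 5.65 for Krt18, 4.13 and 3.81 for Krt7 and 1.88 for Krt19. NOD ES cells set against mESM gave 5 higher and 0 lower of 65 members (7.69%), equal to the 7.69% of all probes (5.09% higher and 2.6% lower). Krt2 (probe 1) rose by 5.98 ± 1.00 (0.00641), Krt8 by 3.28 ± 0.69 and 3.24 (0.0172 and 0.0146), Krt18 by 3.20 ± 0.76 (0.0275) and Krt19 by 1.37 ± 0.22 (0.00514). Krt7 (2.19 and 2.15), Cldn3 (−0.56), Cldn4 (0.62), Cldn6 (0.05) and Cldn7 (−0.65) were not called. Here 6 of 21 claudin probes had an unadjusted p under 0.05 in limma, as had 7805 of all 34296 probes. With the doubtful arrays left out, Krt8 differed by 2.69 and 2.67 and Krt18 by 2.56. In that fit Krt7 (1.54 and 1.66, adjusted p = 0.000304 and 0.0203), Cldn3 (−0.74, 0.032) and Cldn7 (−0.83, 0.00463) were called as well. Both comparisons, and that of EpiSC, share the mESM arrays, and every call of the 2 above was lost when either mESM array was left out (adjusted p up to 0.266 for EpiSC iPS and up to 0.201 for NOD ES). With the slide as a block or with normexp 0 of these calls stayed. For EpiSC iPS that block again rests on the NOD ES array of doubtful label. Fibroblast markers were higher here too, 8 of 10 in EpiSC iPS and 5 of 10 in NOD ES.

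The single epiESM array has no replicate and was not tested. It read 5.93 for Krt18 and 5.79 for Krt8, against 2.77 to 2.79 and 2.02 to 2.08 in mESM, from the same strain and passage. Krt2 (probe 1) read 6.05, its highest level of all 16 arrays, against −4.41 and −4.30 in mESM, while Krt17 read −0.11 against 1.82 and 1.80. Cldn4 read 1.91, also its highest level, against −0.53 and −0.62. Cldn7 read 2.14 against 3.23 and 3.29, and Cldn6 1.37 against 0.70 and 0.67.

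The counts by kind that follow stand beside 15.9% higher and 19.7% lower of all probes between the NOD states, 11.2% and 10.4% in EpiSC against mESM, and 13.4% and 11.2% between the EpiSC-like lines. Of the keratins, 6 of 7 simple epithelial genes were tested, of which 2 rose between the NOD states, 3 in EpiSC against mESM and 3 in EpiSC-like iPS against EpiSC-like ES, and none fell in these. Of 3 basal keratins, 2 rose between the NOD states and 1 in EpiSC against mESM. Of 5 activation keratins, only Krt17 was called in the state comparisons, lower in both. Of 10 tested suprabasal and mucosal genes, 1 rose and 2 fell between the NOD states, including Krt79 (−1.51), whose probe carries another name in the files and is no member. Of 15 tested hair and nail genes, 0 rose and 2 fell between the NOD states (Krt27 and Krt28) and none was called in EpiSC against mESM. Of 11 tested sealing claudins, 0 rose and 3 fell between the NOD states, 1 rose and 2 fell in EpiSC against mESM, and 4 rose between the EpiSC-like lines. Of 4 tested channel claudins, 2 rose between the NOD states, 1 rose in EpiSC against mESM and 2 fell between the EpiSC-like lines. The median difference of the simple epithelial list was 0.49 between the NOD states, 2.11 in EpiSC against mESM and 2.15 between the EpiSC-like lines, beside −0.23, −0.27 and 0.25 for all probes.

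The partners of keratins and claudins were read from lists with 1 probe for each gene, and their counts stand beside the same shares of all probes. Repressors of epithelial genes rose in both state comparisons, 6 of 6 each time, with medians of 2.70. Most fibroblast feeder markers rose in both comparisons too, as given above, and the part of feeder cells in the repressor values was not tested. Zeb2 rose by 3.39 and Twist1 by 3.03 between the NOD states (adjusted p = 0.00214 and 0.000156), and Zeb2 by 4.87 and Snai1 by 3.00 in EpiSC against mESM (0.00366 and 0.000622). Of 12 tested regulators that drive epithelial genes, 0 rose and 6 fell between the NOD states, led by Tfap2c (−4.18), Grhl1 (−2.99) and Grhl2 (−2.74), and 0 rose and 4 fell in EpiSC against mESM, led by Elf3 (−3.80).

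Tight junction partners went both ways, with 4 higher and 8 lower of 19 between the NOD states and 4 higher and 4 lower in EpiSC against mESM. The scaffold gene Tjp3 (−2.42) and the adhesion gene Jam2 (−2.05) were among those that fell between the NOD states. Of 12 desmosome and linker genes, which tie keratin filaments to the membrane, 0 rose and 4 fell between the NOD states, led by the plakophilin Pkp3 (−2.68) and the cadherin Dsg2 (−2.34). In EpiSC against mESM 1 rose, the desmoplakin gene Dsp (1.56), and 4 fell, led by Pkp3 (−3.32). Between the EpiSC-like lines 4 rose and 1 fell, and Pkp3 rose by 2.35 and the tight junction gene Cgn by 2.05. Among other intermediate filament genes Vim, that of mesenchymal cells, rose by 2.92 between the NOD states and by 4.15 in EpiSC against mESM, while the neurofilament gene Nefh fell by 5.26 between the NOD states and fell by 6.81 in EpiSC against mESM. Between the EpiSC-like lines Vim differed by −0.09 and was not called, and of the 6 repressors only Zeb1 was called (−1.56). The part of feeder cells in the Vim values was not tested either.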

How the data were processed

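RNA of 16 cultures was labelled with Cy3 from 0.5 µg of total RNA per array, per the labels' protocols, and hybridised to an Agilent mouse array (grid build mm7). The processed signal is an intensity that Feature Extraction 10.1.1.1 background-subtracted and detrended within each array, per the file headers, with no scaling between arrays. The deposited value table holds log2 values, which from the values are the mean spot signal after quantile normalization; the submitters' processing notes name limma.

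Control spots were removed, outlier spots set to missing, spots of a probe averaged, and each array's log2 processed signals were centred on their 75th percentile. This scaling leaves a median difference of all probes from −0.27 to 0.37 between groups, and values are relative to it. Tested probes passed the scanner's background flag on 2 or more of 16 arrays. In limma 3.58.1 (R 4.3.3), a mean for each group was fitted across 16 arrays (9 residual and 2.25 prior degrees of freedom), with Benjamini-Hochberg adjustment over 34296 probes at 0.05. Where no array of a group measured a probe, its fold is a bound, set from the dimmest signal that passed the flag on those arrays. Symbols were updated through RefSeq tables (60 of 73 members by accession, 11 by symbol, 1 by an older symbol, 1 left as in the file). Another 9 probes whose updated symbol, but not file name, is a keratin or claudin are no members. Slides, read from the headers, were tested as batches. Arrays carry no read depth.

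Members, lists, comparisons and alternatives were chosen with earlier results of these data known. Named were the called members of a comparison, always Krt7, Krt8, Krt18, Krt19, Cldn3, Cldn4, Cldn6 and Cldn7, and up to 3 genes of a partner list. A partner gene that this rule names is not reported here. Lists of neural, epidermal and visceral endoderm markers were also read; in EpiSC against mESM 2 of 4, 1 of 5 and 1 of 6 tested genes rose and none fell. Primed epiblast markers gave 3 higher and 1 lower of 4 and naive markers 0 higher and 4 lower of 5. On simulated shifts of 1, 2 and 4 (log2) in the NOD state comparison, the fit recovered 9%, 56.7% and 92.4% of shifted probes. Figures used Python 3.11.15 with matplotlib 3.10.9.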

Additional observations from a re-analysis of the deposited data

Results flagged for a closer look

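Among the 64 member probes compared over the 4 arrays of NOD EpiSC-like ES, 5 had an array standing apart from the other 3 by Dixon's test, which by chance marks about 1 in 20 groups. Cldn10 read −0.53 on replicate 2, the highest of 4 arrays that all measured it. Cldn18, a claudin of stomach and lung, read −0.76 on replicate 2, and Krt26, a hair follicle keratin, read −1.69 on the same array, each above background on that array alone. Replicate 2 also had the largest share of member probes above background, 94.5%. Krt1 (first of its probes) stood highest on replicate 4 at −1.77, and Krt75, a hair follicle companion layer keratin, stood lowest on replicate 3 at −2.95.

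The state difference of the NOD lines differed from that of the non-NOD lines, by the interaction test in limma, for 4 member probes of 3 genes (6.15% of members, against 10.3% of all probes). None of the 4 calls held in every fit without 1 array or with the slide as a block. The NOD difference minus the non-NOD difference was −3.79 and −3.81 for the probes of Krt8, −5.51 for Krt2 (first probe) and −1.24 for Krt19. The other Krt2 probe gave −0.84 and was not called.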

How the results depend on the processing

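Of the members called, 9 of 15 stayed called whichever single array was left out in the NOD state comparison, 6 of 11 in EpiSC against mESM, 6 of 16 between the EpiSC-like lines, 2 of 8 in the EpiSC-like lines against EpiSC, 2 of 5 in EpiSC iPS against EpiSC, and 0 of 8, 0 of 5 and 0 of 4 in EpiSC iPS against mESM, NOD ES against mESM and the interaction. The counts of called members then ranged from 10 to 19, 6 to 17, 6 to 23, 2 to 13, 2 to 13, 0 to 14, 0 to 10 and 0 to 6 in the same order. The lowest came without NOD ES replicate 3 (10) and EpiSC-like iPS replicate 2 (6), and otherwise without an EpiSC or mESM array. The highest came without NOD ES replicate 1 in 5 of these and, tied with 3 other arrays, in the interaction, without EpiSC iPS replicate 2 in EpiSC iPS against EpiSC, and without either EpiSC iPS array in NOD ES against mESM. Without the 2 arrays of doubtful label the counts, in the same order, were 26, 23, 27, 24, 29, 18, 14 and 20. Where the share of all probes called without these arrays is given above, it rose as well. The counts in this section stand without such shares, so they describe the fits and not the members. Array weights gave 29 in the NOD state comparison, 34 in EpiSC against mESM, 22 in the EpiSC-like lines against EpiSC, 22 in NOD ES against mESM and 26 in the interaction. With normexp background correction the counts were 6 in EpiSC against mESM, 4 in the EpiSC-like lines against EpiSC, 1 in EpiSC iPS against EpiSC, and 0 between the EpiSC-like lines, in EpiSC iPS and NOD ES against mESM and in the interaction (37, 9, 7 and 11 members at an unadjusted p under 0.05 in limma). That correction shrank the interquartile range of all tested probes to 0.038 and 0.509 on the EpiSC-like iPS arrays and 0.164 on EpiSC-like ES replicate 1, against 1.80 to 3.27 on the others. With the slide as a block they were 2 in EpiSC against mESM, 7 between the EpiSC-like lines, 11 in EpiSC iPS against EpiSC (all lower), 2 in EpiSC iPS against mESM (both lower), and 0 in NOD ES against mESM and in the interaction (4 and 9 at an unadjusted p under 0.05). The EpiSC iPS counts rest on NOD ES replicate 1, the only other array of their slide. With the mESM arrays averaged they were 6 in EpiSC against mESM, 4 in the EpiSC-like lines against EpiSC, and 0 in EpiSC iPS against mESM, NOD ES against mESM and the interaction (9, 9 and 8 unadjusted). Quantile normalization gave 5 in the EpiSC-like lines against EpiSC, 8 in EpiSC iPS against EpiSC and 7 in the interaction, and the deposited value table gave 8 in EpiSC iPS against EpiSC. The mean of a gene's probes gave 5 in EpiSC iPS against mESM and 2 in the interaction. A filter of at least 8 arrays, chosen after seeing the data, gave 5 in the EpiSC-like lines against EpiSC. In the NOD state comparison, Cldn4 turned to 0.38 with the slide as a block, Krt27 to 1.44 with normexp and 0.068 in the value table, and Krt28 to 1.03 with normexp and 0.32 within slide 4. Between the EpiSC-like lines normexp turned Cldn10 to 0.35, Krt28 to 1.40 and Cldn2 to 0.43. In EpiSC iPS against EpiSC, Krt8 turned to 1.21 and 1.24 without the doubtful arrays and Cldn4 to −0.47 with the slide as a block, and in EpiSC iPS against mESM the second Krt7 probe turned to −0.14 with that block. The share of higher among all called probes was 66.1% in NOD ES against mESM, 53.1% after quantile normalization and 38.7% in the value table. It was 61.7%, 47.5% and 44.3% in EpiSC iPS against mESM, 53.9%, 40.1% and 42.2% in EpiSC iPS against EpiSC, and 39.7%, 42.8% and 51.6% in the interaction. With normexp it was 58.7% against 44.7% in the NOD state comparison and 66.2% against 51.8% in EpiSC against mESM, and with the slide as a block 58.6% in the NOD state comparison. Causes were not tested. No paired analysis was possible because replicate numbers in the labels are shared by no groups compared, and the slide was used as the block instead. Signal over background limits the reach, with 8 of 73 member probes above it on fewer than 2 arrays and so not tested.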
